A study of Homo sapiens with 6 samples.

Results

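Transcripts of 10 histone genes were followed in MOLP-8 cells, a line derived from human multiple myeloma, after CRISPR targeting of LIN28B. The genes were chosen by name as the H2A, H3 and linker H1 variants that lie outside the replication histone clusters: H2AFZ, H2AFV, H2AFX, H2AFJ, H2AFY, H2AFY2, H3F3A, H3F3B, H1FX and H1F0. All 10 were found once each among the 57861 genes usable in every library. LIN28B KO cells (3 libraries) carried a lentiCRISPRv2 vector with a guide against LIN28B, and control cells (3 libraries) carried the same vector with a scrambled guide. The vector, puromycin selection at 1 ug/mL and RPMI medium with 10% serum were common to both groups. The labels name 1 guide against LIN28B, and nothing in them says that a group's libraries were separate cultures. The p-values therefore reflect the spread among the 6 libraries alone, and that spread may be technical. Values are levels in FPKM, fragments relative to transcript length and to the size of the library, with a value for every gene in each library. Bulk RNA cannot tell fewer cells with a transcript from less transcript per cell.

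Nucleosomes wrap DNA around an octamer of core histones, and linker histones of the H1 family bind where the DNA enters and leaves. The bulk of core histone is made in S phase from clustered genes whose mRNAs lack a poly(A) tail, whereas most variant genes give spliced or polyadenylated mRNAs that can be made and deposited outside replication. H2A.Z marks promoters and enhancers, H2A.X is phosphorylated at DNA breaks, macroH2A is found in silenced chromatin, and H3.3 replaces H3 at transcribed genes and at heterochromatic repeats. LIN28B blocks the maturation of let-7 microRNAs, which restrain many genes of growth and proliferation.

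LIN28B stood at 8.41, 8.17 and 5.84 FPKM in LIN28B KO libraries 1 to 3, against 23.3, 24.3 and 25.5 FPKM in control libraries 1 to 3, so the targeted transcript was lower but still present. Plasma cell markers SDC1, TNFRSF17, XBP1, IRF4 and PRDM1 ranged from 63.4 to 1049.3 FPKM over the 6 libraries, and CD3E, CD14 and EPCAM of T cells, monocytes and epithelium were at most 1.27 FPKM. The relative depth, estimated from the deposited bounds with control library 1 at 1, was 0.533 to 0.717 in the LIN28B KO libraries and 0.718 to 1 in the controls. LIN28B KO library 3 stood apart: it had 17676 genes at or above 1 FPKM, against 15932 and 15922 in LIN28B KO libraries 1 and 2 and 15356 to 15430 in the controls. In it the 3998 protein-coding genes that averaged 20 to 100 FPKM in control had a median log2 ratio to the control mean of -0.50, against -0.07 and -0.06 in LIN28B KO libraries 1 and 2. Fits were therefore made with all 6 libraries and with the 5 that remain without it, each also after cyclic loess, a scaling that removes trends with expression level. The fits of 5 libraries were limited to protein-coding genes.

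None of the 8 genes high enough to be tested passed with all 6 libraries unscaled, comparing LIN28B KO and control cells. H2AFZ and H2AFX were called lower in LIN28B KO in the other 3 fits, H1FX in 2 and H2AFV in 1. The spread of levels among the 10 genes was wide. By control mean the order ran from H2AFZ through H3F3B, H2AFY, H3F3A, H1FX, H2AFX, H2AFV and H2AFJ to H1F0 and H2AFY2. The ranges of neighbours in this order did not overlap among the controls, except those of H2AFX and H2AFV. The bounds in the authors' files belong to the estimate within each library and lay between 3.15% and 10.0% of the value away from it for the 8 genes above 20 FPKM. They did not follow level and depth alone. For H2AFY they lay 4.35% away at 154.5 FPKM in control library 1 and 6.97% away at 155.5 FPKM in control library 2. Summed over the 10 genes, the level was 1048, 1058 and 710.7 FPKM in LIN28B KO libraries 1 to 3, against 1349, 1336 and 1360 FPKM in control libraries 1 to 3.

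**Figure D1:**
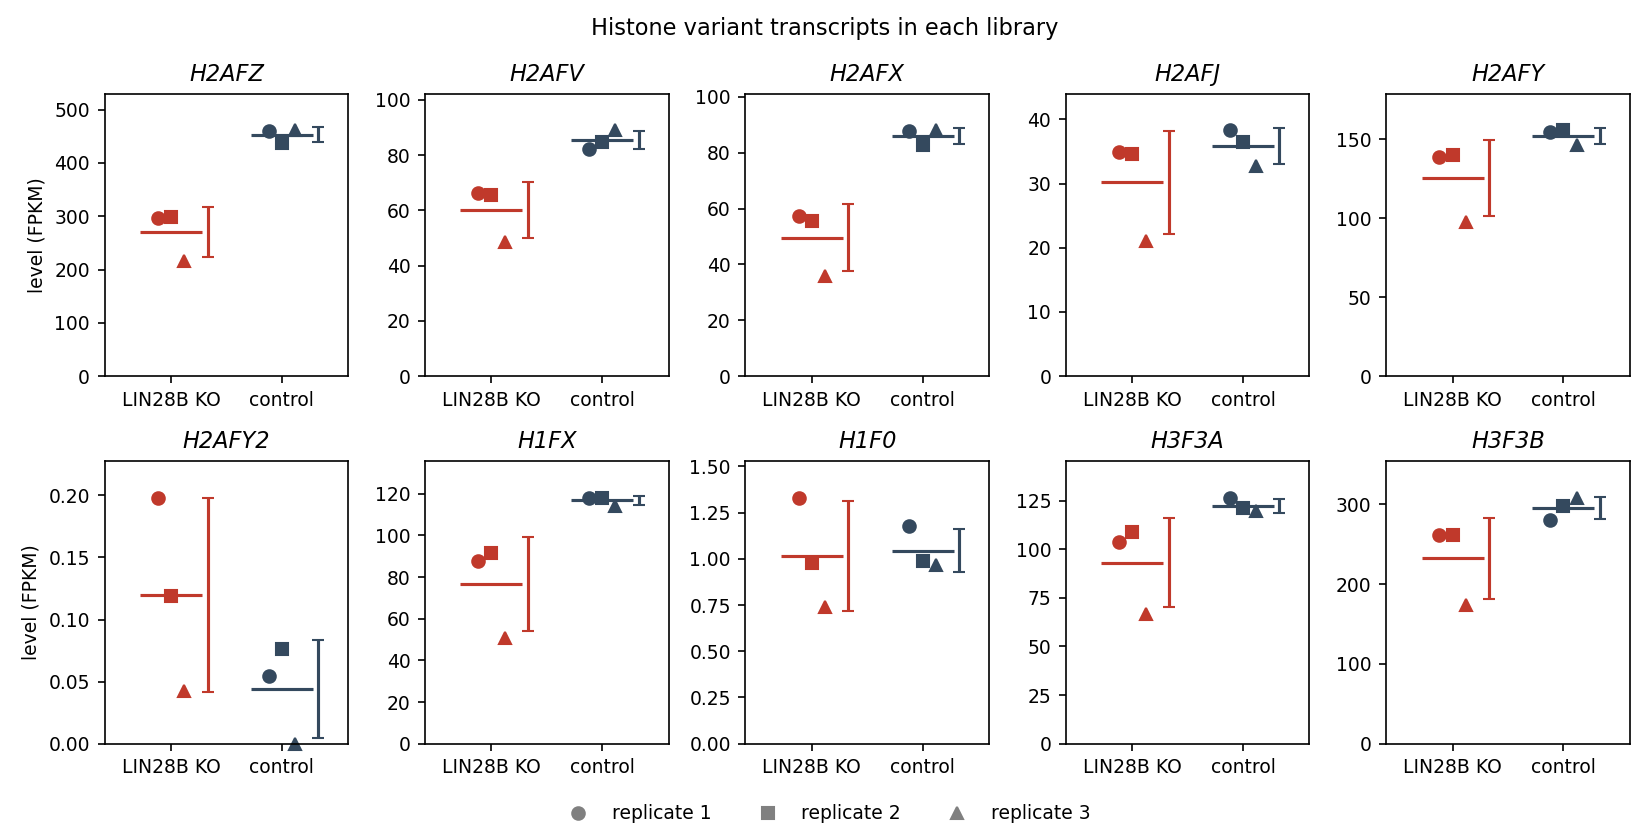
Level in FPKM (y axis, from 0, a separate scale for each gene) of each gene in the 3 LIN28B KO libraries (red, left) and the 3 control libraries (blue, right), with symbols for the replicate numbers. Horizontal lines are group means and bars 1 SD (n = 3). In 7 of the 8 genes above 20 FPKM every LIN28B KO library lies below every control, as in 20.1% of all tested genes. LIN28B KO replicate 3 is the lowest of the 6, and it was low for protein-coding genes of 20 to 100 FPKM as a class.

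Of the 10 genes, 8 had at least 1 FPKM in at least 3 libraries and were tested, and H1F0 and H2AFY2 lay under that filter. With all 6 libraries limma called 0 of the 8 lower, at a background of 0.0316% of all 15803 tested genes, and 0 higher, at a background of 0.0633% (adjusted p = 0.233 to 0.536). At an unadjusted p under 0.05 there were 4 of the 8 genes and 2163 of all tested genes. After cyclic loess of the 6 libraries 2 of the 8, H2AFZ and H2AFX, were called lower (background 0.342%) and 0 higher (background 0.361%). Without LIN28B KO library 3, among 11308 protein-coding genes, 4 of the 8 were called lower (background 3.02%) and 0 higher (background 1.08%). These were H2AFZ, H2AFX, H1FX and H2AFV. With cyclic loess on these 5 libraries 3 of the 8 were called lower (background 1.17%) and 0 higher (background 1.08%), since H2AFV missed the threshold. The calls without LIN28B KO library 3 rest on 5 libraries together: leaving out any 1 more, in either group, left 0 of the 8 called, with adjusted p from 0.0550 to 0.0865 for H2AFZ and from 0.0585 to 0.0865 for H2AFX. These limma fits of 4 libraries called 0 genes higher and 0 lower among all tested genes, with 1964 to 2349 at an unadjusted p under 0.05, so the lost calls are not a result about the histone genes. The log2 fold change in them ranged from -0.63 to -0.59 for H2AFZ and from -0.63 to -0.58 for H2AFX. Every LIN28B KO level was below every control level for 7 of the 8, at a background of 20.1% of all tested genes. That background includes genes of lower level, whereas LIN28B KO library 3 was low for protein-coding genes of 20 to 100 FPKM as a class. No share was computed for genes of like level. Over the 8 genes the log2 fold changes had a median of -0.47 with all 6 libraries, against -0.13 for all tested genes, and -0.29 without LIN28B KO library 3, against -0.04. All tested genes include many of lower level than these 8. After cyclic loess, which removes trends with level, the medians were -0.24 with 6 libraries and -0.21 with 5, each against 0.0 for all tested genes.

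**Figure D2:**
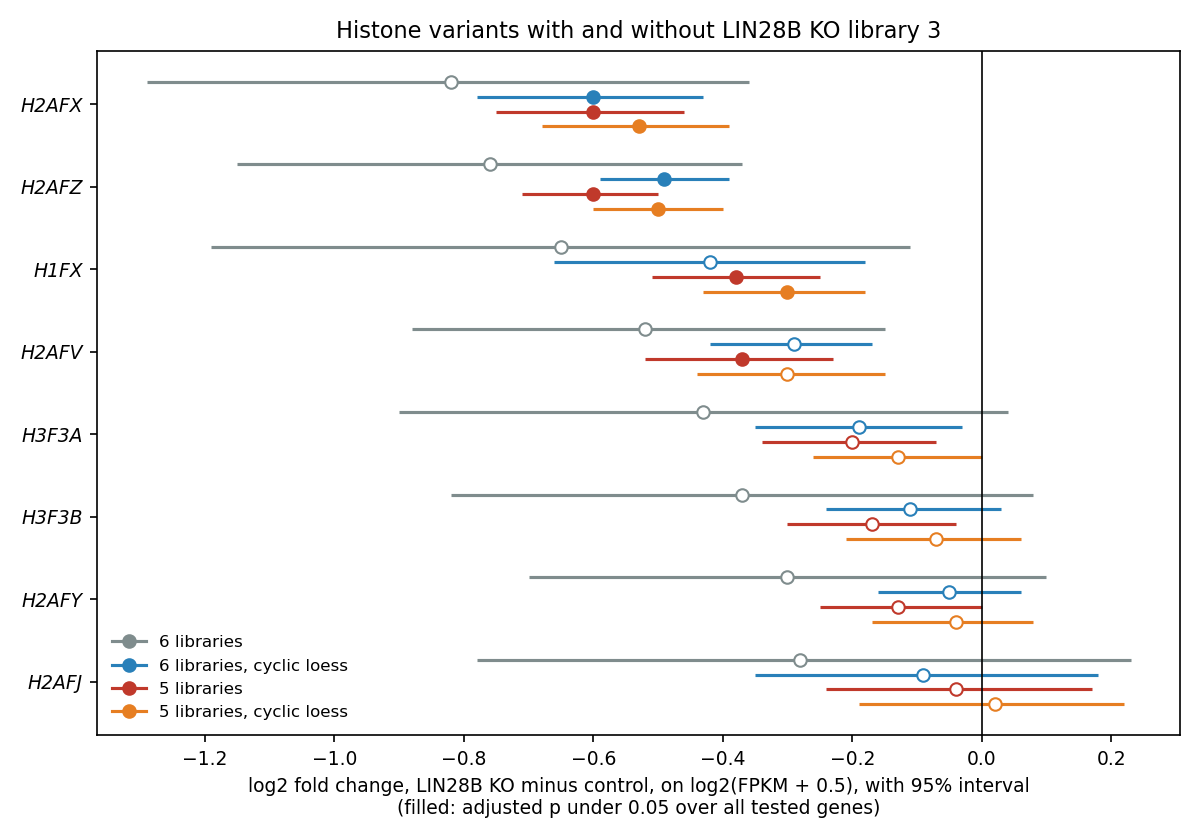
Log2 fold change of LIN28B KO over control (x axis, with 95% intervals) for the 8 tested genes in 4 fits: all 6 libraries, 5 libraries without LIN28B KO replicate 3, and each after cyclic loess. Filled points passed an adjusted p of 0.05 over all tested genes. H2AFX and H2AFZ lie furthest to the left in all 4 fits, and the intervals of H2AFJ include 0 in each.

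The H2A.Z genes come first among the H2A variants. H2AFZ, on chromosome 4 at 100869243 to 100871545 (GRCh37, minus strand, the whole gene), encodes H2A.Z.1, the major H2A.Z isoform in most cells. It stood at 296.6, 298.6 and 215.5 FPKM in LIN28B KO libraries 1 to 3, against 460.5, 437.6 and 461.0 FPKM in control libraries 1 to 3. All LIN28B KO libraries were below all controls, with libraries 1 and 2 almost level and library 3 lowest. The means were 270.3 ± 47.4 FPKM in LIN28B KO and 453.1 ± 13.4 FPKM in control (SD, n = 3 each). In the fit without LIN28B KO library 3 H2AFZ fell 1.52-fold (log2 fold change -0.60, SE 0.04, adjusted p = 0.0142), and after cyclic loess of all 6 libraries 1.40-fold (log2 fold change -0.49, SE 0.04, adjusted p = 0.0143). With all 6 libraries unscaled the change was larger and its error wider, at -0.76 (SE 0.17, adjusted p = 0.233). RP11-15B17.1, an antisense gene that overlaps H2AFZ, was also lower, at 11.7, 11.6 and 7.69 FPKM in LIN28B KO and 20.7, 18.5 and 20.5 FPKM in control. Whether the counting used strand is not given in the sources used here, so reads of the 2 genes cannot be told apart, although the antisense level was far below that of H2AFZ. The 5 listed H2AFZ pseudogenes summed to at most 0.489% of its level in any library.

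H2AFV, on chromosome 7 at 44866390 to 44887682 (GRCh37, minus strand), encodes H2A.Z.2, which differs from H2A.Z.1 in a few residues and has partly separate functions. It stood at 66.2, 65.7 and 48.6 FPKM in LIN28B KO libraries 1 to 3, against 82.4, 84.9 and 89.0 FPKM in the controls. The groups did not overlap. Without LIN28B KO library 3 H2AFV fell 1.29-fold (log2 fold change -0.37, SE 0.06, adjusted p = 0.0329), but it missed the threshold after cyclic loess of the same 5 libraries (-0.30, SE 0.06, adjusted p = 0.0665) and of all 6 (-0.29, SE 0.05, adjusted p = 0.0789). It also missed it with all 6 libraries unscaled (-0.52, SE 0.16, adjusted p = 0.298), and with 5 libraries when all gene types were tested (adjusted p = 0.0631) or no filter was used (adjusted p = 0.0635). H2AFZ and H2AFV together came to 362.9, 364.3 and 264.2 FPKM in LIN28B KO, against 543.0, 522.5 and 550.0 FPKM in control.

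The balance between these paralogs was compared within each library. A ratio within a library does not depend on a linear scaling of that library. H2AFZ over H2AFV was 4.48, 4.55 and 4.43 in LIN28B KO libraries 1 to 3, against 5.59, 5.16 and 5.18 in control libraries 1 to 3. LIN28B KO library 3 lay with its own group here, below every control. The difference in mean log2 ratio, LIN28B KO minus control, was -0.24, from 2.17 ± 0.02 in LIN28B KO and 2.41 ± 0.06 in control (SD, n = 3 each), and it was -0.23 without LIN28B KO library 3. By permutation, exact and two-sided, p was 0.1, the smallest p that 3 against 3 libraries allow, and 0.15 adjusted over the 3 ratios computed.

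**Figure D3:**
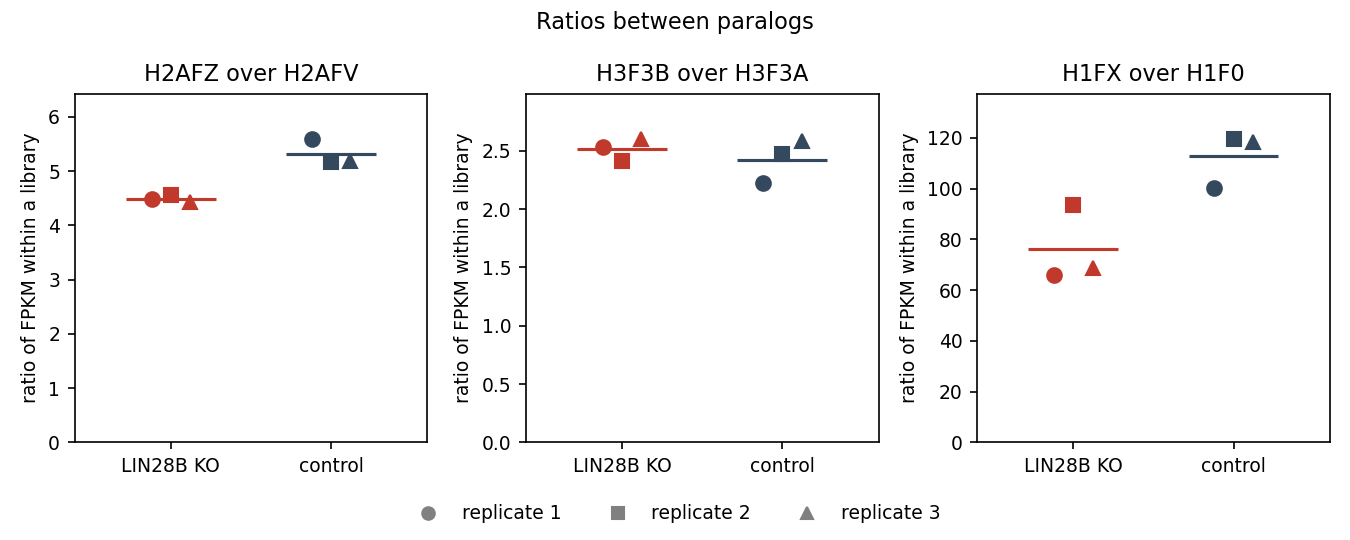
Ratio of FPKM between paralogs within each library (y axis, from 0) for H2AFZ over H2AFV, H3F3B over H3F3A and H1FX over H1F0, in LIN28B KO (red, left) and control libraries (blue, right), with group means as lines. The groups are separate for the first, at 4.43 to 4.55 in LIN28B KO and 5.16 to 5.59 in control, and for the third, and overlap for H3F3B over H3F3A.

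H2AFX, on chromosome 11 at 118964564 to 118966177 (GRCh37, minus strand), encodes H2A.X, whose tail is phosphorylated by the DNA damage kinases to form gamma-H2A.X around breaks. Unlike other variants it is made both as a stem-loop mRNA in S phase and as a polyadenylated mRNA. It stood at 57.4, 55.5 and 35.7 FPKM in LIN28B KO libraries 1 to 3, against 87.6, 82.8 and 88.0 FPKM in control libraries 1 to 3. Again no LIN28B KO library reached the controls. H2AFX fell 1.52-fold without LIN28B KO library 3 (log2 fold change -0.60, SE 0.06, adjusted p = 0.0188) and 1.52-fold after cyclic loess of all 6 libraries (-0.60, SE 0.07, adjusted p = 0.0371). It did not pass with all 6 libraries unscaled (-0.82, SE 0.20, adjusted p = 0.253). In the loess scaling LIN28B KO library 3 was at -0.73 from the control mean on the log2 scale, beside -0.51 and -0.56 in LIN28B KO libraries 1 and 2. H2AFX and H2AFV overlapped in the controls, but H2AFV was above H2AFX in each LIN28B KO library.

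The promoters of the variants that fell most, H2AFZ and H2AFX, are shown with those of H2AFV, the H2A.Z paralog, and H3F3B, an abundant variant that did not pass the test. Each runs 5′ to 3′ on the gene's own strand from 250 bases before to 50 bases after the transcription start of RefSeq, in GRCh38.p14, which is not the build of the deposited loci. Capitals mark CCAAT, the box bound by NF-Y, and TTTGAA, the cell cycle homology element of late cell cycle promoters, each on either strand, so that CCAAT may read ATTGG and TTTGAA may read TTCAAA. H2AFZ lies at chr4:99950226-99950525 (minus), H2AFX at chr11:119095416-119095715 (minus), H2AFV at chr7:44848038-44848337 (minus) and H3F3B at chr17:75779730-75780029 (minus).
H2AFZ: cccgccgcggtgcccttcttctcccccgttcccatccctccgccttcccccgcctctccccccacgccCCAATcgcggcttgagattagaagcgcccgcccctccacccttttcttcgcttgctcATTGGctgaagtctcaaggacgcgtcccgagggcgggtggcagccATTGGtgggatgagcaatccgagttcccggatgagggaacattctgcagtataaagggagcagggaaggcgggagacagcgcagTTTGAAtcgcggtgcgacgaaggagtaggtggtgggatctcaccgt
H2AFX: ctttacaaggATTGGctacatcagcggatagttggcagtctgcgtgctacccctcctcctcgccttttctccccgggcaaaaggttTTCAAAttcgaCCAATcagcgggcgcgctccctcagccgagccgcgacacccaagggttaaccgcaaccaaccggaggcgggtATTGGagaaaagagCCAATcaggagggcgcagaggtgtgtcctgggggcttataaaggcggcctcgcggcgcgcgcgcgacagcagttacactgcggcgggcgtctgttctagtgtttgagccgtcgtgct
H2AFV: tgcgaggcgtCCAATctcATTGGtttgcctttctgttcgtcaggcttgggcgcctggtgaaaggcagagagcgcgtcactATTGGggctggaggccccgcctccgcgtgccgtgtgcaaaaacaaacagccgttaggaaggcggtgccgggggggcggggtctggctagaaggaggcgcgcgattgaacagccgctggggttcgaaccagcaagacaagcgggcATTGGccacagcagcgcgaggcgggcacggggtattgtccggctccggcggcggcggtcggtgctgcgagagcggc
H3F3B: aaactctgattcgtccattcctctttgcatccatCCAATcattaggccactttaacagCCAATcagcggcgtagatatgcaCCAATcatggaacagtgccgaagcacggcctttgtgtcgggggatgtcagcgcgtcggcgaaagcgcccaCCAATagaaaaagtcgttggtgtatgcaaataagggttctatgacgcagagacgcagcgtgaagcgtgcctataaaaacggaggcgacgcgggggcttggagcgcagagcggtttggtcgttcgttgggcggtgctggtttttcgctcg

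CCAAT occurred 3 times in the H2AFZ window and 4 times in each of the H2AFX, H2AFV and H3F3B windows, and 10.8% of all 35116 promoter windows held it at least 2 times. TTTGAA occurred 1 time each in the windows of H2AFZ, 4 bases after the start, and H2AFX, 164 bases before it, and in no window of the other 7 genes with a promoter sequence. That is 2 of the 13 windows of these genes, near the 15.2% of all windows that hold it. Of 5 motifs searched on both strands, GGGCGG (the Sp1 box) was found in 8 of the 13 windows of the 9 genes, against 45% of all windows. Of the E2F-like strings, TTGGCGC was found in the H1FX window alone (3.04% of all windows) and TTCGCGC in none of the 9 genes (2.24%). CCAAT was found in 9 of the 13 windows, against 34.6% of all windows, with up to 4 windows from 1 gene. The strings can share bases at their ends, and no 2 matches did in the 4 windows shown. The matches describe these letters only.

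H2AFJ and the macroH2A genes passed in none of the fits. H2AFJ, on chromosome 12 at 14927270 to 14930936 (GRCh37, plus strand), encodes H2A.J, a variant found in mammals that accumulates in senescent human fibroblasts. Its levels were 35.0, 34.6 and 21.0 FPKM in LIN28B KO libraries 1 to 3, against 38.3, 36.5 and 32.8 FPKM in the controls. LIN28B KO libraries 1 and 2 lay within the range of the controls and library 3 below it. Without library 3 the log2 fold change was -0.04 (95% interval -0.24 to 0.17, adjusted p = 0.825), and after cyclic loess of these 5 libraries it was 0.02 (95% interval -0.19 to 0.22).

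H2AFY, on chromosome 5 at 134669590 to 134735604 (GRCh37, minus strand), encodes macroH2A1, whose large macro domain sets it apart from other H2A proteins. It stood at 138.5, 140.0 and 97.8 FPKM in LIN28B KO libraries 1 to 3, against 154.5, 155.5 and 146.2 FPKM in the controls. The groups did not overlap, by a small margin in LIN28B KO libraries 1 and 2. The deposited bounds of these libraries reached up to 148.4 and 151.4 FPKM. Those of control libraries 1 to 3 began at 147.7, 144.7 and 137.1 FPKM, so the bounds overlapped. Without library 3 the log2 fold change was -0.13 (95% interval -0.25 to 0.00, adjusted p = 0.222), and after cyclic loess of all 6 libraries -0.05 (95% interval -0.16 to 0.06, adjusted p = 0.577). C5orf66, an antisense gene over the H2AFY locus, was at 13.9, 12.4 and 28.3 FPKM in LIN28B KO and at 6.40, 6.47 and 6.70 FPKM in control, and without strand its reads cannot be told apart from those of H2AFY.

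H2AFY2, on chromosome 10 at 71812552 to 71872036 (GRCh37, plus strand), encodes macroH2A2 and was hardly detected. It was listed at 0.198, 0.119 and 0.0423 FPKM in LIN28B KO libraries 1 to 3, against 0.0549, 0.0765 and 0 FPKM in the controls. The lower deposited bound reached 0 in 5 of the 6 libraries, the exception being LIN28B KO library 1 at 0.00694 FPKM, and no fold change was computed. macroH2A transcript in these cells thus came almost wholly from H2AFY.

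The H3.3 genes, which encode the same protein from different mRNAs, were slightly lower in LIN28B KO libraries 1 and 2 and did not pass the test in any of the 4 fits. H3F3A, on chromosome 1 at 226249552 to 226259702 (GRCh37, plus strand), stood at 103.5, 108.9 and 66.9 FPKM in LIN28B KO libraries 1 to 3, against 126.4, 121.1 and 119.7 FPKM in the controls. The log2 fold change was -0.20 without LIN28B KO library 3 (95% interval -0.34 to -0.07, adjusted p = 0.0989) and -0.13 after cyclic loess of these libraries (adjusted p = 0.254). H3F3B, on chromosome 17 at 73772515 to 73781974 (GRCh37, minus strand), is the more abundant of the pair. Its levels were 262.0, 261.9 and 173.6 FPKM in LIN28B KO libraries 1 to 3, against 280.2, 298.7 and 308.3 FPKM in the controls. The log2 fold change was -0.17 without LIN28B KO library 3 (95% interval -0.30 to -0.04, adjusted p = 0.126) and -0.07 after cyclic loess (adjusted p = 0.514). For both genes every LIN28B KO library was below every control, with library 3 far below libraries 1 and 2.

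H3F3A and H3F3B together came to 365.5, 370.8 and 240.5 FPKM in LIN28B KO, against 406.7, 419.8 and 428.0 FPKM in control. H3F3B over H3F3A was 2.53, 2.41 and 2.60 in LIN28B KO libraries 1 to 3, against 2.22, 2.47 and 2.58 in control libraries 1 to 3. The groups overlapped, and the difference in mean log2 ratio of 0.06 was within their spread (exact two-sided permutation test, p = 0.6, and 0.6 adjusted over the 3 ratios). Processed pseudogenes of H3F3A (5 listed) summed to at most 1.41% of its level and those of H3F3B (2 listed) to at most 0.694%. UNK, a protein-coding gene on the other strand that overlaps H3F3B, was at 23.0 to 32.7 FPKM in LIN28B KO and 28.7 to 29.5 FPKM in control.

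Among linker histones the levels of the 2 genes lay far apart. H1FX, on chromosome 3 at 129033615 to 129035120 (GRCh37, minus strand), encodes H1.10 (H1x), a replication-independent linker histone. It stood at 87.6, 91.5 and 50.8 FPKM in LIN28B KO libraries 1 to 3, against 118.0, 118.0 and 114.3 FPKM in control libraries 1 to 3. No LIN28B KO library reached the controls, and library 3 was far below the other 2. H1FX fell 1.30-fold without LIN28B KO library 3 (log2 fold change -0.38, SE 0.05, adjusted p = 0.0289) and passed after cyclic loess of these libraries (-0.30, SE 0.05, adjusted p = 0.0480). With 5 libraries it missed the threshold when all gene types were tested (adjusted p = 0.0622) or no filter was used (adjusted p = 0.0614). With all 6 libraries it did not pass, at -0.65 unscaled (SE 0.23, adjusted p = 0.326) and -0.42 after cyclic loess (SE 0.10, adjusted p = 0.125). The antisense gene H1FX-AS1, which overlaps it, was at 43.3, 48.4 and 24.6 FPKM in LIN28B KO and 60.0, 54.6 and 54.6 FPKM in control. It did not pass with all 6 libraries, unscaled (adjusted p = 0.364) or after cyclic loess (adjusted p = 0.230). Without strand the reads of this pair cannot be told apart either.

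H1F0, on chromosome 22 at 38201114 to 38203442 (GRCh37, plus strand), encodes H1.0, the linker histone that accumulates in differentiated and non-dividing cells. It was barely expressed, at 1.33, 0.977 and 0.739 FPKM in LIN28B KO libraries 1 to 3, against 1.18, 0.987 and 0.966 FPKM in the controls. The groups overlapped, and the deposited bounds lay 20.4% to 30.7% away from the value. H1FX over H1F0 was 66.1, 93.7 and 68.8 in LIN28B KO, against 100.2, 119.5 and 118.4 in control, a difference in mean log2 ratio of -0.58 (exact two-sided permutation test, p = 0.1, and 0.15 adjusted over the 3 ratios). The loose bounds of H1F0 limit this ratio. The replication-dependent linker histone HIST1H1C, whose H1.2 mRNA can also be polyadenylated, ran the other way, at 50.6, 53.0 and 33.8 FPKM in LIN28B KO and 38.9, 37.7 and 32.6 FPKM in control. It rose 1.42-fold without LIN28B KO library 3 (log2 fold change 0.51, SE 0.09, adjusted p = 0.0383) and did not pass with all 6 libraries (0.30, SE 0.20, adjusted p = 0.474). After cyclic loess HIST1H1C passed with the 5 libraries (0.57, SE 0.09, adjusted p = 0.0394) and missed the threshold with all 6 (0.50, SE 0.09, adjusted p = 0.0806). Each of the 5-library fits called 1.08% of all tested genes higher. HIST1H1E was at 1.66, 2.54 and 2.61 FPKM in LIN28B KO and 1.39, 1.34 and 0.922 FPKM in control (adjusted p = 0.191 without LIN28B KO library 3), and HIST1H1A, HIST1H1B, HIST1H1D and HIST1H1T were below 1 FPKM in every library. Whether the libraries were made from poly(A) RNA is not stated here. Levels of clustered histone genes and of H2AFX may therefore cover only part of their mRNA, and low values do not show that a gene was silent.

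As shares of the summed level of the 10 genes, which must add up within a library, the make-up differed between the groups. H2AFZ made up 28.3%, 28.2% and 30.3% in LIN28B KO libraries 1 to 3, against 34.1%, 32.8% and 33.9% in the controls. The share of H2AFX was 5.03% to 5.48% in LIN28B KO and 6.20% to 6.49% in control. These 2 shares were below all controls in every LIN28B KO library. Since the shares add up, lower shares of some genes raise those of others, and no test was made. Shares above all controls were those of H3F3B (24.4% to 25.0% in LIN28B KO and 20.8% to 22.7% in control), H2AFY (13.2% to 13.8% in LIN28B KO and 10.7% to 11.6% in control), H3F3A (9.41% to 10.3% in LIN28B KO and 8.80% to 9.37% in control) and H2AFJ (2.95% to 3.34% in LIN28B KO and 2.41% to 2.84% in control). H1F0 and H2AFY2 made up at most 0.126% each and are too imprecise to compare. The shares of H2AFV and H1FX overlapped between the groups. Within LIN28B KO, library 3 had the highest H2AFZ share and the lowest H1FX share, at 7.15% against 8.36% and 8.65% in libraries 1 and 2.

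**Figure D4:**
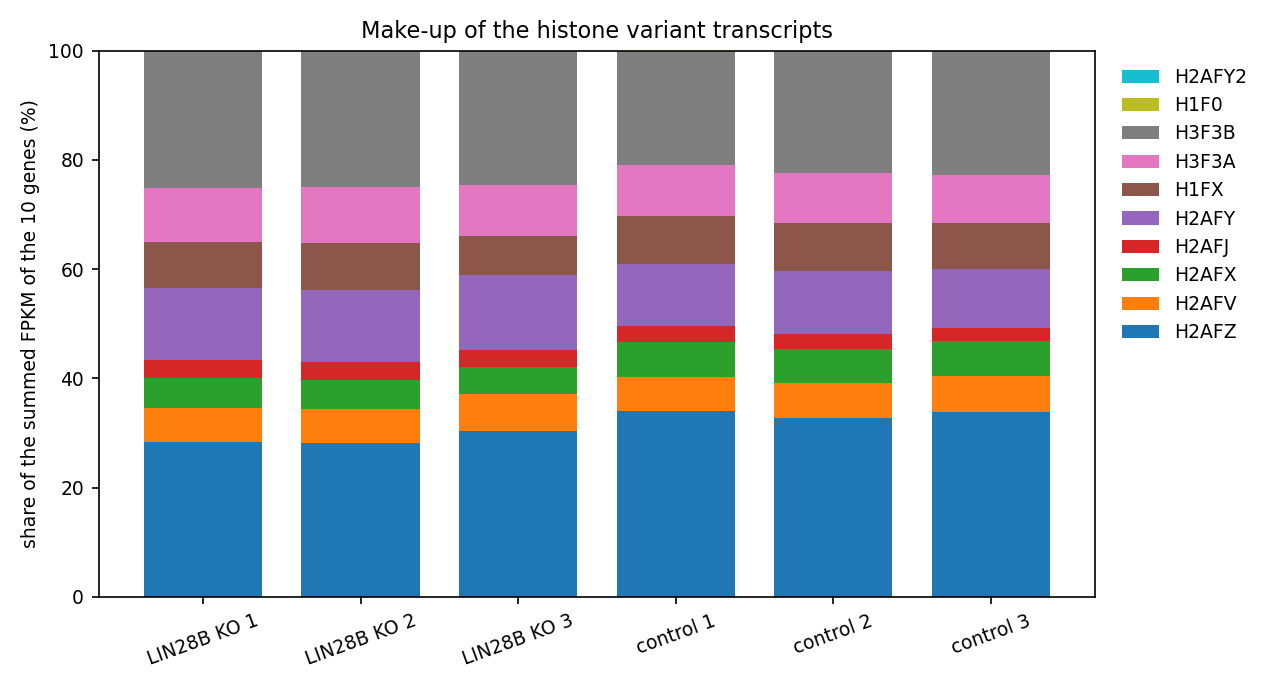
Share of each gene in the summed FPKM of the 10 genes (y axis, percent), 1 stacked bar per library, LIN28B KO libraries left and control libraries right. The H2AFZ segment at the bottom is 28.2% to 30.3% in LIN28B KO and 32.8% to 34.1% in control, and the H3F3B segment is larger in LIN28B KO; H1F0 and H2AFY2 are too small to be seen.

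The genes whose pattern over the 6 libraries was most like that of H2AFZ, among 4850 protein-coding genes with a mean of at least 20 FPKM, were TPX2, a spindle assembly factor, DDX51, an RNA helicase, COL6A3, a collagen chain, AQP3, a water and glycerol channel, and STS, steroid sulfatase. Pearson correlations of log2(FPKM + 0.5) were 0.998 to 0.999, over libraries that share the group difference and the low values of LIN28B KO library 3. TPX2 was at 30.5, 30.5 and 22.9 FPKM in LIN28B KO and 43.7, 42.8 and 43.7 FPKM in control. On the same measure H2AFX ranked 17 and H2AFV 61 of 4850, H1FX 418, H3F3A 892, H3F3B 1074, H2AFY 1271 and H2AFJ 2416. Even at rank 2416 the correlation was 0.766, so high values were common on this measure.

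The machinery that deposits variants was examined through lists written with earlier results of these data known. The counts without LIN28B KO library 3 stand beside 3.02% of all tested genes called lower, 1.17% after cyclic loess, and none of these calls remained when 1 more library was left out. For H2A.Z exchange by SRCAP, TIP60/p400 and INO80, 1 of 27 tested genes fell without LIN28B KO library 3 and 0 rose, with a median log2 fold change of -0.08 against -0.04 for all tested genes. The gene that fell was ANP32E, a chaperone that removes H2A.Z, at 131.5, 131.0 and 99.5 FPKM in LIN28B KO and 174.3, 182.0 and 172.9 FPKM in control (1.34-fold lower, adjusted p = 0.0226). RUVBL2 and RUVBL1, the shared ATPases, had log2 fold changes of -0.21 (adjusted p = 0.127) and -0.17 (adjusted p = 0.165). For H3.3 deposition by HIRA and by ATRX/DAXX, 1 of 8 fell and 0 rose, with a median of -0.02. This was DEK, a chromatin protein that acts as an H3.3 chaperone (1.39-fold lower, adjusted p = 0.0297), while DAXX (-0.28, adjusted p = 0.138) and ATRX (0.21, adjusted p = 0.369) did not pass. ANP32E and DEK also passed after cyclic loess of the 5 libraries, and 0 genes of either list passed with all 6 libraries.

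Of the chaperones of replication-coupled assembly, 6 of 12 fell without LIN28B KO library 3 and 0 rose, with a median of -0.37, and 3 fell after cyclic loess of the 5 libraries. CHAF1A, the large subunit of chromatin assembly factor CAF-1, was at 19.7, 24.1 and 17.2 FPKM in LIN28B KO and 39.2, 37.2 and 36.1 FPKM in control (1.70-fold lower, adjusted p = 0.0249). MCM2, a helicase subunit that also holds parental H3 and H4, was 1.59-fold lower (adjusted p = 0.0289), and NASP, which keeps the soluble H3 and H4 pool, 1.26-fold (adjusted p = 0.0329). With all 6 libraries 0 passed unscaled and CHAF1A and MCM2 passed after cyclic loess. CENP-A, the centromeric H3 variant, and its depositors had 3 of 6 tested genes called lower without LIN28B KO library 3, 0 higher and a median of -0.42. After cyclic loess of the 5 libraries 1 passed, HJURP, and with all 6 libraries 0 passed unscaled and HJURP after cyclic loess. The unscaled adjusted p was 0.165 for HJURP, 0.226 for CENPA and 0.277 for MIS18A. HJURP, its chaperone, was at 20.4, 23.6 and 16.4 FPKM in LIN28B KO and 42.2, 39.1 and 38.9 FPKM in control (1.81-fold lower, adjusted p = 0.0198). CENPA itself was at 13.5, 11.5 and 11.3 FPKM in LIN28B KO and 17.9, 22.4 and 20.9 FPKM in control (1.61-fold lower, adjusted p = 0.0382, and 0.0550 after cyclic loess of the 5 libraries). MIS18A, which licenses the deposition, was 1.36-fold lower (adjusted p = 0.0414, and 0.0665 after cyclic loess).

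Among 11 general histone chaperones 5 fell without LIN28B KO library 3, PTMA (1.29-fold), NPM1 (1.16-fold), NCL (1.20-fold), NAP1L1 and SSRP1, with adjusted p of 0.0329 to 0.0425. None passed with all 6 libraries, unscaled or after cyclic loess. After cyclic loess of the 5 libraries 0 passed, and the median changed to -0.11, against -0.17 unscaled. Of 17 tested genes listed for H2A.X phosphorylation, its removal or its readout, 1 fell without LIN28B KO library 3, with a median of -0.06. This was BRCA1, 1.53-fold lower (adjusted p = 0.0439, 0.0660 after cyclic loess, and 0.298 with all 6 libraries). PRKDC, a kinase of H2A.X, had -0.22 (adjusted p = 0.129) and NBN -0.43 (adjusted p = 0.155). The other histone variant genes were CENPA, above, H2AFB1, which has near-identical copies, at 2.82 to 4.05 FPKM in LIN28B KO and 3.20 to 4.06 FPKM in control, and 8 further genes that lay under the filter.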

How the data were processed

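RNA-seq was carried out on 6 MOLP-8 libraries, 3 LIN28B KO and 3 control; groups follow the condition label and replicate numbers the titles. The tools credited in the submitters' processing notes are cutadapt, HTSeq and TopHat2, with the build GRCh37; for their roles and versions, the strand, the read length and the annotation, the sources used here give nothing. The authors deposited FPKM for each gene, with bounds on both sides, per the file headers. No read numbers are given; relative depth came from the bounds, which lie 2 SDs from the estimate, in 1238 low genes whose implied fragment number was whole within 0.01 in every library. Rows of a gene were summed (108 genes listed in several rows), and 25 genes with a failed estimate were left out. Loci were converted to 1-based starts.

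Genes that reached 1 FPKM in 3 or more libraries were tested on log2(FPKM + 0.5) by limma 3.58.1 (in R 4.3.3; trended variance, no covariates). Adjustment was by Benjamini-Hochberg over every tested gene, at a threshold of 0.05. This scale understates changes of low genes. The 5-library fit left out LIN28B KO library 3 and kept genes that GENCODE 29 lists as protein-coding. The scripts were tested on simulated data. The genes, lists, fits and the naming rule (all 10 genes, up to 3 genes per list by p, 5 genes most like H2AFZ) were chosen with earlier results of these data known; NAP1L1 and SSRP1 were named after their values were seen. The ratio of H2AFY to H2AFY2 was not computed, since H2AFY2 was listed at 0 in a control. Promoter sequences are those of RefSeq (GRCh38.p14), matched by symbol or synonym for 9 of 10 genes. Alternatives were other pseudocounts, no filter, quantile and cyclic loess scaling, a replicate block, other gene types and leaving out each library.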

Additional observations from a re-analysis of the deposited data

How the results depend on the processing

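With 6 libraries, 0 of the genes were called with a pseudocount of 0.1 or 1, no filter, a replicate block or protein-coding genes only; 1 was called with quantile normalization and 2 with cyclic loess, and leaving out 1 library gave 0 to 2, the 2 being without LIN28B KO replicate 3. With 5 libraries, 4 genes were called, 4 with either pseudocount, 3 with quantile or cyclic loess scaling, 2 with no filter, 2 with all gene types, and 0 when any 1 further library was left out (0 to 0). Over all 15803 tested genes the 6-library fit called 10 higher and 5 lower (quantile 15 and 13, cyclic loess 57 and 54, either pseudocount 10 and 4). It called 5 and 1 of 37614 with no filter, and 13 and 18 of 11434 protein-coding genes. Leaving out 1 control library gave 13 to 17 higher and 0 lower. Leaving out LIN28B KO library 1 gave 1 and 6, library 2 gave 1 and 3, and library 3 gave 23 and 41. With so few calls among all genes, 0 calls with 6 libraries are not a result about the histone genes. The 5-library fit called 122 and 341 (quantile 114 and 133, cyclic loess 122 and 132, no filter 6 and 18, all gene types 23 and 41, any 1 further library left out 0 and 0). H2AFJ, which was never called, changed sign with 5 libraries to 0.01 with quantile normalization and 0.02 with cyclic loess, and ranged from -0.10 to 0.01 when 1 library was left out, the 0.01 being without control replicate 1. The cause of these changes was not tested. The other 7 genes kept their direction in every setting. Leaving out 1 library, the difference in log2 ratio ranged from -0.26 to -0.20 for H2AFZ over H2AFV, -0.01 to 0.10 for H3F3B over H3F3A and -0.74 to -0.48 for H1FX over H1F0.

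Same-numbered libraries of the 2 groups had correlations of their deviations from the group means of -0.02, 0.04 and -0.03, so the numbers are not taken to pair them. With the replicate number as a block, 0 genes were called with 6 libraries and 0 with 5 (over all genes 11 higher and 2 lower, and 0 and 0). The ratio differences were -0.24, 0.06 and -0.58 as without it. A block with a single library of each group must give the same difference, so this is no check of the ratios. Read numbers are not given, so the depth behind each value is known only relative to control library 1.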
